A study of Rattus norvegicus with 12 samples.

Results

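The galectin family was followed in CRI-G1-RS and CRI-G1-RR cells, which are closely related rat insulinoma lines that differ in how readily they die after treatment with rotenone, an inhibitor of mitochondrial complex I. The family was taken as 9 genes, namely Lgals1, Lgals2, Lgals3, Lgals4, Lgals5, Lgals7, Lgals8, Lgals9 and Lgals3bp, and its members were chosen by their gene symbol with the measured RS to RR difference already known, above all the low RS signals of Lgals2 and Lgals4. For this reason no p-value is printed for the differences of the members between the lines. Where a member is said to have passed the threshold given below, this is a description and not evidence of a difference. Of the 9 genes, 8 had a probe set annotated to that gene alone, among 14218 genes with a single symbol on the array, and together they had 9 probe sets because Lgals8 had 2. Lgals5 had none of its own and shared 1 probe set with Lgals9.

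CRI-G1-RS (rotenone-susceptible) is a subclone that was set aside after a change in cell shape in culture, and CRI-G1-RR (rotenone-resistant) is the original CRI-G1 clone, so each line stands for 1 clone. Both derive from a transplantable rat islet tumour, both were grown in the same high-glucose medium with serum, and neither was treated before the RNA was taken. For each line RNA of 6 samples was hybridized, giving 12 rat Affymetrix arrays with 31099 probe sets. The 6 samples of a line are different passages of the same cells, so p-values measure the spread between passages of 1 clone. Signals were linear and had been scaled to a common trimmed mean of 250.068 to 250.075 on every array. Pairs of arrays had Pearson correlations of 0.979 to 0.987 within RS cells, 0.980 to 0.987 within RR cells and 0.952 to 0.965 between the lines, and no pair held identical values. A log2 fold change is the RS mean minus the RR mean of log2(signal + 16) after quantile normalization, so it is positive where RS cells had more signal, and the added 16 makes the changes of dim genes look smaller. A gene is said to have risen or fallen where limma gave an adjusted p under 0.05 over all probe sets. With this rule 15.4% of all probe sets were lower and 16.3% higher in RS cells, and with 1 probe set a gene the shares of genes were 18.3% lower and 21.0% higher. In such bulk samples a smaller number of cells carrying an RNA and less of it per cell cannot be told apart.

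Galectins are lectins that recognize sugars ending in beta-linked galactose, most of all the N-acetyllactosamine units of N-glycans and O-glycans. They are made in the cytosol, leave the cell without a signal peptide, and outside it cross-link glycoproteins and glycolipids into lattices that hold receptors at the surface, while inside it they mark damaged endosomes and take part in sorting of membrane cargo. Prototype galectins (Lgals1, Lgals2, Lgals5 and Lgals7) carry a single carbohydrate-binding domain, Lgals3 joins its domain to a flexible tail through which it forms multimers, and tandem-repeat galectins (Lgals4, Lgals8 and Lgals9) hold a pair of different domains in a single chain. Lgals3bp is no lectin but a secreted, heavily glycosylated protein that binds galectins.

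The sequences around the transcription starts of Lgals2 and Lgals4 are shown first because these genes had the largest differences between the lines within the family. Promoters of 300 bases, 250 before and 50 after each start, were taken from RefSeq on assembly GRCr8 and found for 7 of the 9 members. Lgals1 and Lgals3 were not matched. Capitals mark 4 motifs: CAAAGTCC, a site of the type bound by Hnf4 factors, GTTAAT, of the type bound by Hnf1 factors, TTTATG, of the type bound by Cdx factors, and GATAA, of the type bound by Gata factors.
Lgals2, chr7:112290074-112290373, minus strand: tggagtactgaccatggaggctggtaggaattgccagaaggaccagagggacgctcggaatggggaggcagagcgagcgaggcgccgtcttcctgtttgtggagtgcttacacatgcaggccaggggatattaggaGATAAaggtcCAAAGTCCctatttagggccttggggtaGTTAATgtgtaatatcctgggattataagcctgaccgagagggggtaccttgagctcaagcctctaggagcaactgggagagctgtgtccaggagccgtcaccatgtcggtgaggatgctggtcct
Lgals4, chr1:93252035-93252334, plus strand: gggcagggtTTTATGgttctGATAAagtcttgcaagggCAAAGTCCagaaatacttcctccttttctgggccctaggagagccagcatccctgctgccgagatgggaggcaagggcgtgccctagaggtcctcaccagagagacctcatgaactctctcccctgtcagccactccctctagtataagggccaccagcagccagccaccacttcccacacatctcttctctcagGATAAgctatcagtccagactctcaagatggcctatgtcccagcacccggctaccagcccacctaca
Both promoters held CAAAGTCC, beginning 104 bases before the start in Lgals2 and 212 bases before it in Lgals4. These letters were in no promoter of the other 5 matched members and in 1.4% of all 33469 rat promoters of this length, searched on both strands. Lgals2 also had GTTAAT 76 bases before its start, which 7.45% of promoters hold, and GATAA at 114 bases. Lgals4 had TTTATG at 241 bases, which 12.7% of promoters hold, and GATAA at 230 and at 17 bases. GATAA is common, being in 26.5% of promoters, and stood on the other strand in Lgals5 and Lgals3bp. The core of the antioxidant response element, TGACNNNGC, which 12.1% of promoters hold, was found in Lgals8, beginning 57 bases before the start. None of these matches overlapped another. The motifs were picked after the promoters and the signals had been read, and a match is a description of the letters, not evidence that a factor binds there.

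Lgals5 and Lgals9 are shown together because the array could not fully separate them. Both lie on chromosome 10, and their promoters shared a run of 82 bases, with 223 of 231 aligned bases (96.5%, gaps left out) identical between the 2 promoters.
Lgals9, chr10:64428170-64428251, minus strand, and Lgals5, chr10:64355306-64355387, minus strand: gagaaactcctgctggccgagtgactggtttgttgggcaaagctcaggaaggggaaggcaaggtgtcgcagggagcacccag

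Of the 9 galectin probe sets 5 passed the threshold as lower in RS cells, 1 as higher and 3 as neither, beside 15.4% lower and 16.3% higher over all probe sets. The choice of members used these same differences, so nothing is read from the counts. For 4 probe sets every RS array lay below every RR array, which was the case for 9.97% of all probe sets, for 1 every RS array lay above every RR array, as for 10.7% of all probe sets, and for the other 4 the lines overlapped. The median log2 fold change was -0.29 over the 9 galectin probe sets and 0.01 over all 31099 probe sets.

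Lgals2, a prototype galectin found mainly in the epithelium of the gastrointestinal tract, had the largest difference in the family. Its signal was 92.9 at the lowest, 102.4 at the median and 147.7 at the highest among RS arrays, against 3958, 4221 and 4675 among RR arrays. The lines were far apart, with the lowest RR array 26.8 times the highest RS array. Lgals2 averaged 112.2 ± 22.9 in RS cells and 4262 ± 275 in RR cells (SD, n = 6 each), 38-fold lower in RS cells (log2 fold change -5.04, SE 0.10). Only 2 of all 31099 probe sets had a lower log2 fold change. The coefficient of variation between passages was 20.4% in RS cells and 6.45% in RR cells. These belong to very different signal levels, and the part of the level in them was not tested.

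Lgals4, a tandem-repeat galectin of the intestine that binds sulfatide and takes part in the transport of proteins to the apical membrane of human gut cell lines, came next. RS arrays gave 408.8 at the lowest, 500.1 at the median and 614.6 at the highest, against 5084, 5428 and 5877 on RR arrays. No RS array came near the RR range, and the lowest RR array was 8.27 times the highest RS array. The mean was 497.4 ± 82.7 in RS cells and 5469 ± 306 in RR cells (SD, n = 6 each), 11-fold lower in RS cells (log2 fold change -3.40, SE 0.10), and 17 probe sets of the array had a lower value. As for Lgals2, the spread relative to the mean was wider in RS cells, 16.6% against 5.6%, again at a much lower signal.

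**Figure D1:**
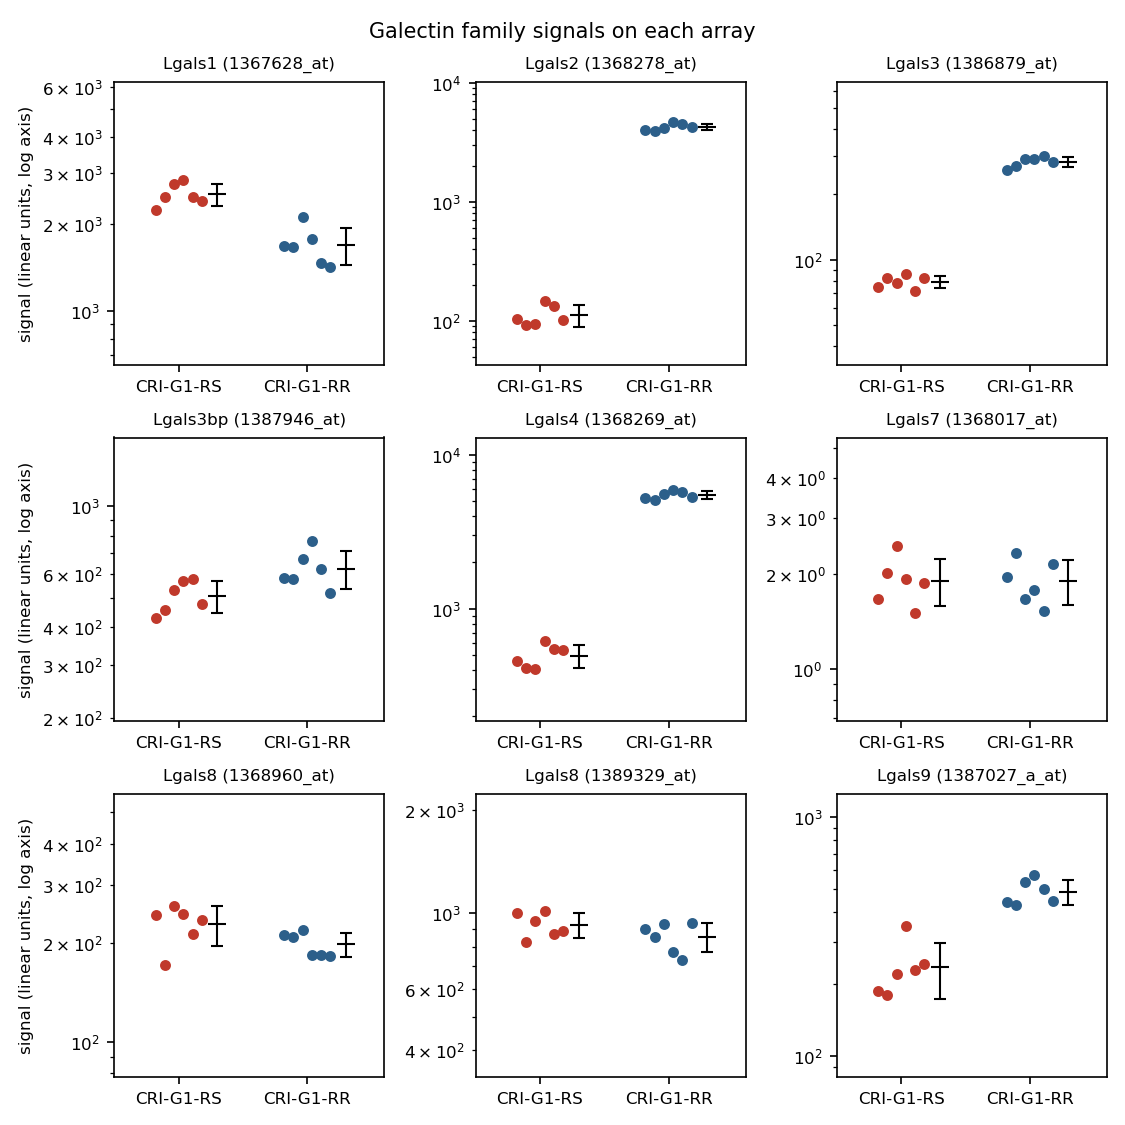
Signal of each galectin probe set on each array, 1 panel a probe set with its own log axis in linear signal units, 6 CRI-G1-RS arrays (red) left of 6 CRI-G1-RR arrays (blue), with the mean and SD beside the points. RS points lie below all RR points for Lgals2, Lgals3, Lgals4 and Lgals9 and above them for Lgals1, and the lines overlap in the other 4 panels.

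Lgals9, the other tandem-repeat galectin with a difference of this direction, is known in immunology as a ligand of the T cell receptor protein Tim-3. It ranged from 179 through a median of 224.4 to 350.9 in RS cells, against 425.6, 471.6 and 568 in RR cells. The lines did not overlap, but the gap was small, since the lowest RR array was 1.21 times the highest RS array. Lgals9 averaged 234.5 ± 62.0 in RS cells and 484.7 ± 57.4 in RR cells (SD, n = 6 each), a log2 fold change of -1.03 (SE 0.14), and had the widest relative spread of the RS arrays among the galectin probe sets, 26.4%. A further probe set, annotated to both Lgals9 and Lgals5 and therefore outside the rule, averaged 290.9 ± 44.7 in RS cells and 494 ± 52.6 in RR cells (SD, n = 6 each), with a log2 fold change of -0.75 (SE 0.10) and all RS arrays below all RR arrays. Which of the 2 genes gave this signal cannot be told apart, and Lgals5, a galectin known from rat reticulocytes and erythrocytes, therefore has no value of its own here.

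Lgals8, the remaining tandem-repeat galectin, binds glycans exposed on damaged endosomes and in human cells recruits the autophagy receptor NDP52 to them. Its first listed probe set ranged from 171.1 through 238.8 to 259 on RS arrays and from 181.7 through 196.3 to 218.1 on RR arrays. The second ranged from 825.4 through 916.8 to 1016 on RS arrays and from 731.1 through 876.1 to 936.6 on RR arrays. The lines overlapped for both, and the log2 fold changes were 0.16 (SE 0.09) and 0.11 (SE 0.08), with neither passing the threshold.

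Lgals3, the chimera-type galectin that forms lattices with branched N-glycans, was lower in RS cells. RS arrays gave 71.5 at the lowest, 79.9 at the median and 86.2 at the highest, against 259.9, 287.4 and 301.7 on RR arrays. The ranges did not overlap and both were narrow, with coefficients of variation of 6.84% in RS cells and 5.47% in RR cells. Its mean was 79.1 ± 5.41 in RS cells and 283.4 ± 15.5 in RR cells (SD, n = 6 each), 3.58-fold lower in RS cells (log2 fold change -1.67, SE 0.06), and 177 probe sets had a lower value.

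Lgals3bp, the secreted glycoprotein that binds galectins, had the smallest difference among the members past the threshold. It ranged from 429.7 through 504.2 to 575.1 in RS cells and from 517.5 through 601.8 to 765.6 in RR cells. These ranges overlapped. Its log2 fold change was -0.29 (SE 0.10), and it lay so close to the threshold that it no longer passed with the deposited scaling alone or without any of several single arrays.

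Lgals1 differed in the opposite direction. It is a prototype galectin that works as a homodimer, binds laminin and fibronectin, and is best known for inducing death of activated T cells. RS arrays gave 2232 at the lowest, 2484 at the median and 2839 at the highest, against 1420, 1673 and 2108 on RR arrays. Every RS array was above every RR array, although the highest RR array and the lowest RS array were close. The mean was 2531 ± 225 in RS cells and 1684 ± 248 in RR cells (SD, n = 6 each), 1.5-fold higher in RS cells (log2 fold change 0.62, SE 0.10). Lgals7, the prototype galectin of stratified epithelium, had signals of 1.51 to 2.44 on RS arrays and 1.53 to 2.33 on RR arrays, near the lowest on the array, and no difference could be read at that level.

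**Figure D2:**
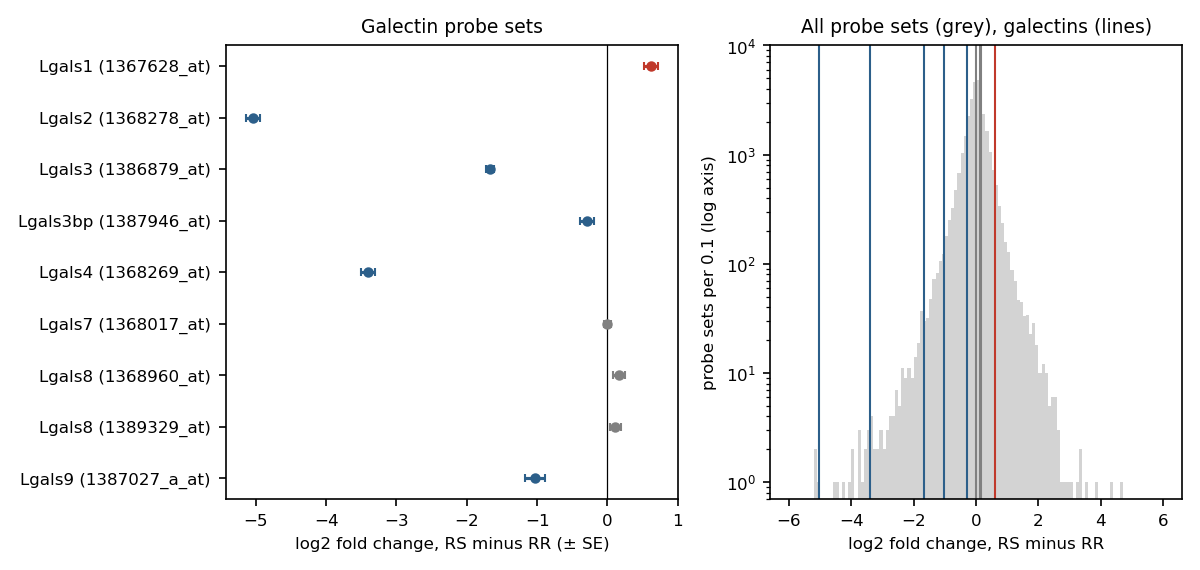
Left, log2 fold change (RS minus RR) with its SE for each galectin probe set, red where it passed the threshold as higher in RS cells, blue as lower and grey as neither. Right, the same values as vertical lines over the distribution of all 31099 probe sets in grey (number of probe sets per 0.1 on a log axis), where Lgals2 at -5.04 and Lgals4 at -3.40 lie in the left tail.

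Genes related to the galectins that the rule did not include were also read. Lgalsl, which encodes a galectin-like protein, had a log2 fold change of 0.22 at one probe set, which passed the threshold (adjusted p = 0.0457), and 0.12 at the other, which did not (adjusted p = 0.412). Lgals12 averaged 3.57 ± 0.952 in RS cells and 6.27 ± 6.95 in RR cells (SD, n = 6 each), a dim signal with overlapping arrays.

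Variation among passages of the same line does not enter the choice of members and was examined within each line. The p-values of single pairs are unadjusted, and no pair passed after adjustment. Lgals2 and Lgals4 had a Pearson r of 0.856 (exact permutation p = 0.0264, n = 6) and a Spearman rho of 0.886 (exact permutation p = 0.0333) in RS cells. In RR cells they had an r of 0.890 (exact permutation p = 0.0236, n = 6) and a rho of 0.886 (exact permutation p = 0.0333). Without the 2 arrays farthest from the median of Lgals2, r was 0.632 in RS cells and 0.443 in RR cells. Such removal narrows the range and leaves few arrays. These values, here and for the pairs below, therefore cannot show on which arrays a relation rested. Lgals4 and Lgals9 had an r of 0.824 in RS cells (exact permutation p = 0.025, rho 0.771 with exact permutation p = 0.103, n = 6) and 0.939 in RR cells (exact permutation p = 0.00694, rho 0.943 with exact permutation p = 0.0167, n = 6). Here r was 0.962 in RS cells and 0.913 in RR cells without the 2 arrays farthest from the median of Lgals4. Lgals2 and Lgals9 had an r of 0.794 in RS cells (exact permutation p = 0.0486, n = 6) and 0.842 in RR cells (exact permutation p = 0.0208, n = 6). Without the 2 arrays farthest from the median of Lgals2 it was 0.440 in RS cells and 0.509 in RR cells. The pairs named here were those with an unadjusted p under 0.05 in both lines. With 8 probe sets, Lgals7 left out, there were 28 pairs in each line and 56 relations in all, of which 9 had an unadjusted exact p under 0.05 and 0 after Benjamini-Hochberg adjustment, the smallest adjusted p being 0.233. All 9 were positive. Values of 1 array share its RNA, labelling and scaling.

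RS replicate 4 was the highest RS array for 6 of the 9 galectin probe sets, and RR replicate 4 the highest RR array for 4 of the 9. Over all probe sets RS replicate 4 was the highest RS array for 18.5% and RR replicate 4 the highest RR array for 14.7%. Replicate 4 was thus often the highest for the galectins in both lines, but it was singled out after the values were seen. The 9 probe sets do not vary independently, and the labels do not say that equal numbers mark a pair.

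**Figure D3:**
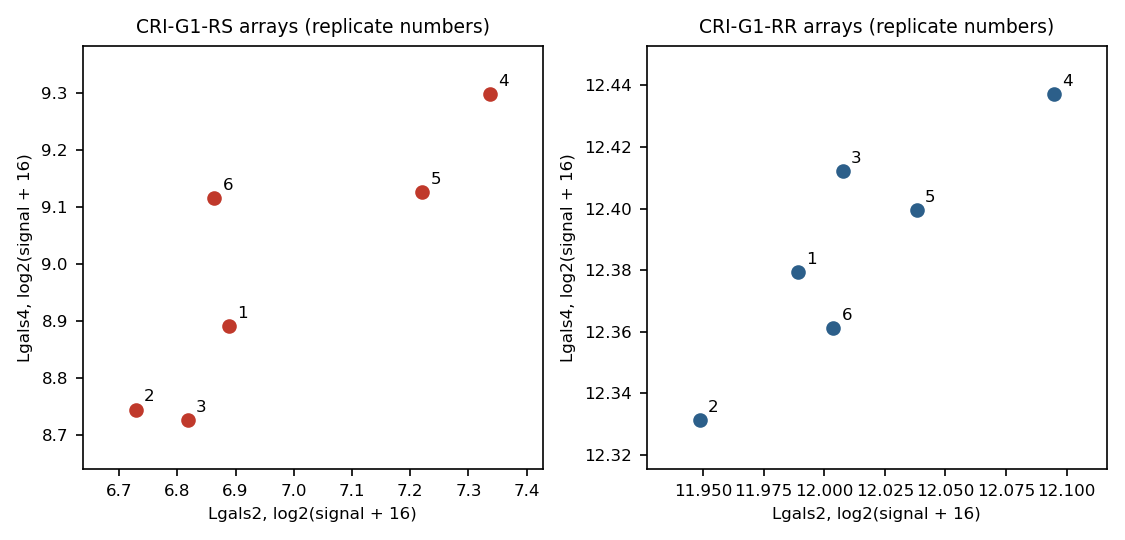
Lgals4 against Lgals2, both as log2(signal + 16) after quantile normalization, for the 6 CRI-G1-RS arrays on the left and the 6 CRI-G1-RR arrays on the right, each point labelled with its replicate number and each panel with its own axes. Replicate 4 lies at the upper right in both lines, and r was 0.856 in RS cells and 0.890 in RR cells.

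The genes beside the galectins were examined to see whether they shared the differences. Lgals1 and Lgals2 lie close together on chromosome 7, with only Gga1 and Sh3bp1 between them among genes with a probe set, and Lgals4 and Lgals7 are neighbours on chromosome 1 with 0 measured genes between them. Around each gene the 10 nearest genes with a probe set on either side were taken, 122 genes over all loci. Of these 30 were higher and 20 lower in RS cells, beside 21.0% higher and 18.3% lower over all genes. Their median log2 fold change was 0.04, beside 0.02 over all genes. The same shares are the background for each stretch below.

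Around Lgals1 and Lgals2 3 of 22 neighbours were higher and 6 lower, with log2 fold changes from -1.15 to 0.53 and a median of -0.01. Gga1, a sorting adaptor of the trans-Golgi network and the neighbour of Lgals2 on one side, averaged 124.5 in RS cells and 119.9 in RR cells, a log2 fold change of 0.02 (adjusted p = 0.93). Cdc42ep1, an effector of the GTPase Cdc42 on the other side, fell (70.2 ± 16 in RS cells and 110.2 ± 14.1 in RR cells, SD, n = 6 each, log2 fold change -0.58, SE 0.11, adjusted p = 0.00117). The next gene, Card10, a scaffold of NF-kappaB signalling, was lowest in this stretch at -1.15 (SE 0.08, adjusted p = 1.64e-07) and was singled out after its value was seen. Lgals1 stood between Sh3bp1, at -0.08 (adjusted p = 0.697), and Nol12, at -0.16 (adjusted p = 0.341). The directions of Lgals2 and Lgals1 thus differed across a short stretch whose measured genes in between did not pass the test.

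Around Lgals4 and Lgals7 6 of 20 neighbours were higher and 3 lower, all between -0.63 and 0.43, with a median of -0.0027. The genes next to the pair were Ech1, an enzyme of fatty acid oxidation, at 0.11 (adjusted p = 0.479), and Actn4, an actin-crosslinking protein, at -0.24 (adjusted p = 0.0798). No neighbour approached the -3.40 of Lgals4. Around Lgals3 5 of 20 were higher and 1 lower, with values from -0.46 to 1.602, and the nearest were Mapk1ip1l at -0.10 (adjusted p = 0.60) and Dlgap5, a mitotic spindle protein, at 0.22 (adjusted p = 0.00737).

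Around Lgals3bp 4 of 20 were higher and 4 lower, with values from -0.88 to 1.61. Around Lgals5 and Lgals9 4 were higher and 1 lower (-0.34 to 1.54), and around Lgals8 8 were higher and 5 lower (-0.96 to 1.45). In these stretches and in that of Lgals3 the highest neighbours were Gch1 near Lgals3, Tbc1d16 near Lgals3bp, Rab11fip4 near Lgals9 and Dip2c near Lgals8. They were chosen after their values were seen. Each rose by more in size than Lgals9, Lgals3bp or Lgals8 differed, and by less than Lgals3 did (-1.67). As each was the highest of 20 genes, nothing is read from this comparison with single galectins. Beside Lgals3bp lay Cep295nl at -0.02 (adjusted p = 0.922) and Cant1, a nucleotidase of the Golgi, at -0.27 (adjusted p = 0.00616). Beside Lgals5 and Lgals9 lay Nos2, the inducible nitric oxide synthase, at 0.17 (adjusted p = 0.543) and Wsb1 at -0.02 (adjusted p = 0.872). Heatr1, a nucleolar protein beside Lgals8, was at 0.23 (adjusted p = 0.216), and LOC100909729 on its other side was at -0.27 (adjusted p = 0.0212).

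**Figure D4:**
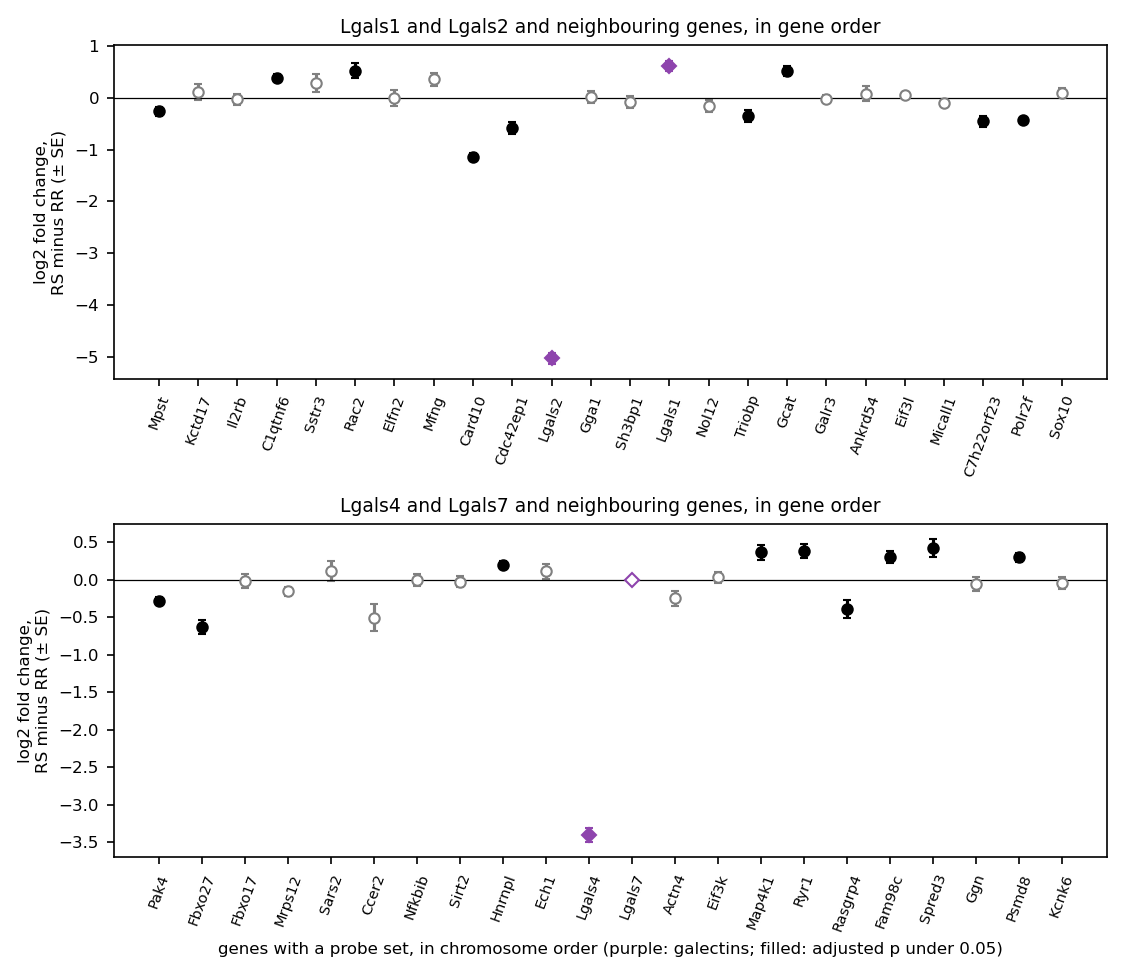
Log2 fold change (RS minus RR, with SE) of genes with a probe set in chromosome order around Lgals1 and Lgals2 (top) and around Lgals4 and Lgals7 (bottom), galectins as purple diamonds, filled where the adjusted p was under 0.05. Lgals2 at -5.04 and Lgals4 at -3.40 stand alone below neighbours that lie between -1.15 and 0.53 (top) and between -0.63 and 0.43 (bottom).

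The genes most like Lgals2 and Lgals4 over the 12 arrays were found by the root mean square difference of their log2 values after centring each gene, among 14210 genes. This measure is ruled by the difference between the lines and is given as a description. For Lgals2 they were Gpx2, the gastrointestinal glutathione peroxidase (0.152), Hpx (hemopexin), a plasma protein that binds haem (0.177), C9, a component of complement (0.332), Sct, the precursor of secretin (0.39), and Tspan8, a tetraspanin of gut epithelium (0.452). Gpx2 averaged 100.2 ± 11.2 in RS cells and 4264 ± 246 in RR cells (SD, n = 6 each). For Lgals4 they were Mgst2, a microsomal glutathione transferase (0.132), Agt, which encodes angiotensinogen (0.175), Hpgd, an enzyme that inactivates prostaglandins (0.195), Creb3l1, a transcription factor of the secretory pathway (0.211), and Selenop, a plasma selenoprotein (0.225). Mgst2 averaged 397.3 ± 28.0 in RS cells and 4202 ± 189 in RR cells (SD, n = 6 each). Lgals2 and Lgals4 differed from each other by 0.821, so neither was among the 5 genes nearest to the other.

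Since galectins act through sugars, genes that build or cap galactose-ending glycans were examined as 5 groups. Of 59 measured genes 10 were higher and 16 lower in RS cells (16.9% and 27.1%), beside 21.0% and 18.3% of all genes. In N-glycan branching 1 of 10 was higher and 4 were lower. Man1a1, a Golgi mannosidase that trims N-glycans before branching, fell to 1273 ± 73.6 in RS cells, against 2385 ± 126 in RR cells (SD, n = 6 each, log2 fold change -0.87, SE 0.06, adjusted p = 1.99e-07). The branching enzyme Mgat4a fell as well, with 277.9 ± 15.7 in RS cells and 426 ± 23.9 in RR cells (SD, n = 6 each, -0.60, adjusted p = 4.84e-06), as did Mgat2 (-0.50, adjusted p = 0.00384) and Man2a1 (-0.36, adjusted p = 0.00958). Only 1 of 2 Mgat4a probe sets and 1 of 3 Man2a1 probe sets passed. Mgat4b was the gene that rose, at 0.19 (adjusted p = 0.0404), a call that was lost under 14 of 19 alternative settings. Mgat5, which makes the branch preferred by Lgals3, had -0.23 at a low signal of 43.0 ± 4.86 in RS cells and 52.6 ± 11.3 in RR cells (SD, n = 6 each, adjusted p = 0.16).

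In N-acetyllactosamine extension 4 of 12 genes were higher and 3 lower. Gcnt2, which branches polylactosamine into I antigen, rose by 0.69 (SE 0.10, adjusted p = 1.75e-04), and the galactosyltransferases B4galt1 (0.43, adjusted p = 0.00906), B4galt3 (0.31, adjusted p = 5.37e-04) and B4galt5 (0.27, adjusted p = 0.00968) rose by less. B3gnt2, the main polylactosamine synthase, fell to 338.1 ± 22.9 in RS cells, against 543.1 ± 20.8 in RR cells (SD, n = 6 each, -0.67, SE 0.06, adjusted p = 1.3e-06). Of 3 probe sets each, 1 of B4galt1 and 2 of B3gnt2 passed. B4galt6, a lactosylceramide synthase, fell by 0.78 (SE 0.04, adjusted p = 4.42e-08). B4gat1, which acts mainly on the matriglycan of dystroglycan, had signals of 248.1 to 274.1 on RS arrays and 556.3 to 585.2 on RR arrays, a log2 fold change of -1.09 (SE 0.05, adjusted p = 4.17e-09).

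Among O-glycan core genes 0 of 11 were higher and 4 lower. Galnt4, which starts O-glycans on serine and threonine, had signals of 52.2 to 86.6 on RS arrays and 263.1 to 414.3 on RR arrays, a log2 fold change of -1.95 (SE 0.12, adjusted p = 1.11e-07). Its relative Galnt7 (-0.75, adjusted p = 7.53e-04), the core 2 enzyme Gcnt3 (-0.50, adjusted p = 0.0183) and the chaperone C1galt1c1 (-0.32, adjusted p = 0.0493) also fell. The call of C1galt1c1 was lost under 11 of 19 settings, and its RS replicate 2, at 667.5, lay apart from the other RS arrays at 1008 to 1193. In sialyl and fucosyl capping, which can mask or modify galactose ends, 5 of 17 were higher and 1 lower, with a median of 0.16. The 4 with the largest rise were Fut1, a fucosyltransferase that makes H antigen (1.14, SE 0.16, adjusted p = 1.05e-04), St3gal5, the ganglioside GM3 synthase (0.84, SE 0.08, adjusted p = 5.68e-06), St6galnac4, which sialylates O-glycans (0.62, SE 0.08, adjusted p = 7.3e-05), and Neu1, a lysosomal sialidase that removes rather than adds sialic acid (0.47, SE 0.08, adjusted p = 6.62e-04). Only 1 of 3 St6galnac4 probe sets passed. St3gal6 fell by 0.35 (adjusted p = 0.0375), a call lost under 7 of 19 settings. St6gal1, whose product blocks binding of several galectins, was dim with 13.0 ± 5.56 in RS cells and 8.46 ± 3.19 in RR cells (SD, n = 6 each, adjusted p = 0.148).

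For sugar nucleotide supply 0 of 9 genes were higher and 4 lower. These were Slc35a2 (-0.97, SE 0.17, adjusted p = 5.78e-04), Nans (-0.69, SE 0.06, adjusted p = 1.74e-06), Cmas (-0.23, SE 0.05, adjusted p = 0.00148) and Pgm3 (-0.54, SE 0.11, adjusted p = 0.0022). Slc35a2 is the Golgi transporter of UDP-galactose. Nans and Cmas make and activate sialic acid, and Pgm3 is an enzyme on the way to UDP-N-acetylglucosamine. Of their probe sets, 2 of 3 passed for Nans and 1 of 2 for Pgm3.

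Proteins and lipids that galectins bind or sit with were examined as 3 further groups of 62 measured genes, of which 14 were higher and 18 lower in RS cells (22.6% and 29.0%), beside the same background of 21.0% and 18.3%. With the probe set of smallest p for each gene 18 were higher and 17 lower, so these genes had no preferred direction that held across settings. In the group of sulfatide and raft lipids, to which Lgals4 binds in gut cells, 3 of 13 were higher and 3 lower. Gal3st1, the sulfotransferase that makes sulfatide, fell to 112.1 ± 9.16 in RS cells, against 151.1 ± 21.1 in RR cells (SD, n = 6 each, -0.39, SE 0.08, adjusted p = 0.00273). Cers2, a ceramide synthase for very long chains, fell by 0.58 (SE 0.05, adjusted p = 1.27e-06) and Anxa2, a membrane-binding annexin, by 0.48 (SE 0.09, adjusted p = 6.46e-04). The ceramide synthase Cers6 (0.71, adjusted p = 2.8e-06), the glucosylceramide synthase Ugcg (0.72, adjusted p = 3.15e-04) and the apical transport protein Mal2 (0.56, adjusted p = 0.00372) rose. For Anxa2 and for Mal2 only 1 of 2 probe sets passed.

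Among 32 surface and secreted ligands 5 were higher and 12 lower. Cdh17, the liver-intestine cadherin, had the largest difference, with 85.2 at the lowest and 147.8 at the highest RS array, against 993.2 and 1789 in RR cells (-3.34, SE 0.15, adjusted p = 6.34e-09). The integrin chains Itga1 (-1.09, adjusted p = 1.95e-04) and Itga6 (-0.83, adjusted p = 1.66e-06) and the growth factor receptor Egfr (-0.73, adjusted p = 1.31e-04) fell. Only 1 of 4 Itga6 probe sets passed. In the other direction the tetraspanin Cd9 (1.71, SE 0.21, adjusted p = 3.16e-05), fibronectin Fn1 (1.05, SE 0.17, adjusted p = 2.93e-04), the anti-phagocytic protein Cd47 (0.89, SE 0.09, adjusted p = 7.84e-06) and the amino acid transporter chain Slc3a2 (0.27, SE 0.07, adjusted p = 0.00684) rose. Of the laminin chains, Lamb1 (-0.72, adjusted p = 3.86e-06) and Lama5 (-0.67, adjusted p = 2.13e-04) fell, the latter with 1 of 3 probe sets passing. Lamc1 did not pass at its brightest probe set (-0.11, adjusted p = 0.324), and 1 of its 2 probe sets passed as higher. Lamp1, a major galectin ligand of lysosomes, averaged 4053 ± 215 in RS cells and 4309 ± 321 in RR cells (SD, n = 6 each, adjusted p = 0.942). For Lamp2 and Cdh2 different probe sets passed the threshold in opposite directions, so neither has a single direction. Lamp2 had -0.25 (adjusted p = 0.00571) at its brightest probe set and 0.56 (adjusted p = 8.64e-04) at the other.

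Of 17 intracellular partners 6 were higher and 3 lower. Pdcd6ip, the ESCRT-associated protein Alix, had -1.10 at its brightest probe set (427.9 ± 31.3 in RS cells and 932.4 ± 45.9 in RR cells, SD, n = 6 each, adjusted p = 4.3e-08) and -1.01 at another (adjusted p = 2.39e-06), but 0.29 at the remaining one (adjusted p = 0.00896). Its probe sets therefore disagree in direction. Tsg101, another ESCRT component, fell by 0.33 (SE 0.06, adjusted p = 5.34e-04), and the annexin Anxa7 by 0.52 (SE 0.07, adjusted p = 4.84e-05). Sufu (0.48, adjusted p = 0.0119), which binds Gli factors, the survival protein Bcl2 (0.46, adjusted p = 0.0184), the kinase Mtor (0.38, adjusted p = 0.00445), which Lgals8 inhibits at damaged lysosomes, and the clathrin adaptor Ap1g1 (0.24, adjusted p = 0.0285) were among those that rose. The call of Ap1g1 was lost under 4 of 19 settings.

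**Figure D5:**
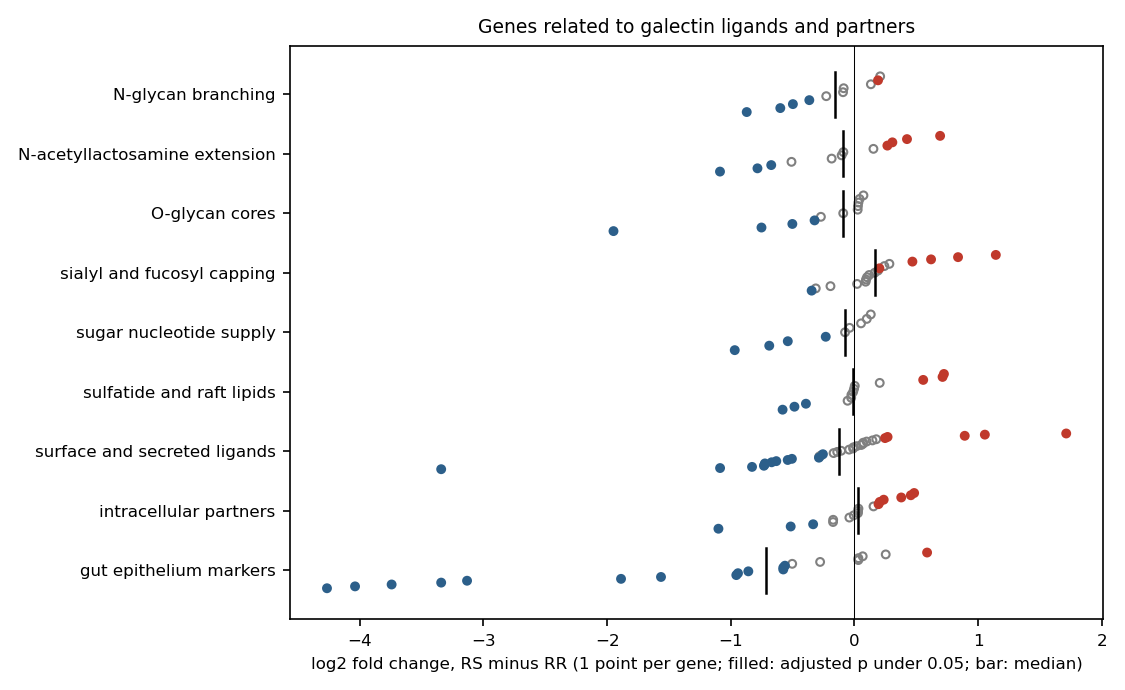
Log2 fold change (RS minus RR) of each measured gene in the glycan groups, the partner groups and the gut epithelium markers, 1 point a gene, filled where the adjusted p was under 0.05 (red higher, blue lower in RS cells), with a bar at the median. The gut epithelium markers extend farthest to the left with a median of -0.72, and the medians of the other groups lie between -0.16 and 0.16.

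Lgals2 and Lgals4 are themselves genes of gut epithelium, so markers of that tissue and of other cells were set beside them. Of 20 gut epithelium markers 13 fell and 1 rose in RS cells. This list, like the other marker lists, was chosen with earlier results of these data known, so its counts and median are a description. Over all genes 18.3% were lower and 21.0% higher, which is also the background of the marker lists below. The median log2 fold change of the gut markers was -0.72, beside 0.02 over all genes. Their summed signal was 7520 to 8958 on RS arrays and 22060 to 28300 on RR arrays. A large part of it came from Krt8, Krt18 and Epcam, with means of 3455, 1054 and 1401 in RS cells and 7048, 2085 and 2132 in RR cells. Tspan8 (195.3 ± 37.0 in RS cells and 4072 ± 343 in RR cells, SD, n = 6 each, -4.26, adjusted p = 6.33e-11), the trefoil peptide Tff3 (-4.04, adjusted p = 1.17e-10) and the microvillus protein Vil1 (-3.74, adjusted p = 5.86e-10) were the lowest, followed by Cdh17. Hnf4a, a transcription factor of gut and liver epithelium, was singled out after its value was seen. At its brightest probe set it had signals of 33.5 to 74.9 on RS arrays and 561.2 to 697.9 on RR arrays. The log2 fold change there was -3.13 (SE 0.13, adjusted p = 2.59e-09). Of its 3 probe sets only this 1 passed the threshold as lower, and 0 passed as higher. Cdx2, an intestinal transcription factor, went the other way and rose by 0.59 (SE 0.08, adjusted p = 1.08e-04), and the intestinal markers Fabp2 and Cdx1 were dim in both lines, with mean signals of 1.87 and 16.7 in RS cells and 1.45 and 16.1 in RR cells. Genes outside this list fell as well, among them Hpx (-5.19), C9 (-4.41), Agt (-3.29) and Selenop (-3.76), which encode plasma proteins. No list of plasma protein genes was examined. The part that the gut epithelium markers have in the galectin differences was not tested.

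Markers of islet beta cells, the labelled origin of the lines, were present, with a summed signal of 29650 to 34180 on RS arrays and 24730 to 28000 on RR arrays. Of 13 measured, 8 rose and 2 fell in RS cells, beside 21.0% higher and 18.3% lower over all genes, with a median of 0.89. Mafa (2.17, adjusted p = 9.48e-07), Nkx6-1 (1.31, adjusted p = 1.2e-04), Ins2 (1.30, adjusted p = 2.97e-05) and Pdx1 (1.09, adjusted p = 5.52e-07), which are beta cell transcription factors and an insulin gene, had the largest rise. The other insulin gene, Ins1, did not pass, with 6495 ± 978 in RS cells and 7118 ± 309 in RR cells (SD, n = 6 each, -0.06, adjusted p = 0.408). The study listed Ins1 as higher in RS cells, on array values processed otherwise and by qRT-PCR. Iapp (adjusted p = 0.0992) and Chgb (adjusted p = 0.66) did not pass either, and Ins1 and Chgb gave a large part of the summed signal. Pax6 fell by 0.46 (adjusted p = 2.52e-05), and Slc2a2 was near background in both lines.

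Markers of cells in which other galectins are abundant were mostly dim. For macrophages, where Lgals3 is abundant, 0 of 15 markers were higher and 1, the complement gene C1qa, was lower (-0.84, adjusted p = 1.59e-05). Summed signals were 602 to 741 on RS arrays and 748.4 to 1013 on RR arrays. The lower RS sum came mostly from C1qa, with means of 212.4 in RS cells and 388.7 in RR cells. Itgam, Adgre1 and Ptprc had means of 2.48, 7.80 and 9.79 in RS cells and 2.15, 10.2 and 12.2 in RR cells. Aif1, Fcer1g and Csf1r were brighter, with 111.8, 84.6 and 70.9 in RS cells and 101.7, 82.9 and 69.4 in RR cells. For fibroblasts, where Lgals1 is abundant, 1 of 12 was higher (Pdgfra, 0.74, adjusted p = 4.85e-04) and 1 lower (S100a4, -3.17, adjusted p = 7.7e-07). Their sums were 391.5 to 511.1 in RS cells and 574.8 to 965.1 in RR cells. The lower RS sum came from S100a4, which averaged 28.8 in RS cells and 376 in RR cells. For keratinocytes 2 of 8 were higher (Krt10 at 0.34 and Ivl at 0.50) and 1 lower (Krt17 at -0.41), for erythroid cells 1 of 8 was higher (Gata1 at 0.27) and 0 lower, and for pancreatic acinar cells 0 of 9 passed in either direction. Sums were 625.7 to 773 in RS cells and 523.1 to 684.4 in RR cells for keratinocyte markers, and 188.6 to 264.3 in RS cells and 224.1 to 274.1 in RR cells for acinar markers. Erythroid markers summed to 4185 to 5207 in RS cells and 4253 to 5087 in RR cells, nearly all of it from the transferrin receptor Tfrc, which many dividing cells express.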

How the data were processed

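RNA of 6 CRI-G1-RS and 6 CRI-G1-RR samples was measured on 1 array each. The authors deposited linear signal intensity values per probe set, made with GCOS 1.4 according to the submitters' processing notes. Log2 values of robust multi-chip averaging, which the study's methods name, were not what this table held, so its signals were quantile normalized between arrays and taken as log2(signal + 16). Means and SDs are of the signals before this step. A fit in limma (version 3.58.1, R 4.3.3), tested on simulated data, had cell type as the only term, with Benjamini-Hochberg adjustment over 31099 probe sets. Precision is limited by the number of arrays.

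Gene symbols came from the platform annotation, with 20832 probe sets having 1 symbol, 436 several and 9831 none. A gene was represented by its probe set of highest mean signal, and members by every probe set. Gene order and chromosomes are those of RefSeq on GRCr8. Named genes were all members, up to 4 genes called in each direction in each list, the nearest neighbours and the 5 genes most like Lgals2 and Lgals4, and any other gene was chosen after its values were seen (among them Mgat5, St6gal1, Lamp1, Lamp2, Cdh2, Fabp2, Cdx1, Itgam, Adgre1 and Ptprc). The members and lists were chosen with earlier results of these data known. Alternatives were median centring, the deposited scaling alone, a pseudocount of 1, a minimum mean signal of 50, array weights, a fit with the replicate number as a block, removal of cross-hybridising probe sets, the probe set of smallest p and leaving out each array.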

Additional observations from a re-analysis of the deposited data

Results flagged for a closer look

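Among 144 sets of 6 arrays of 1 line, for the galectins and the named genes, 9 held an array far from the other 5, and chance alone flags about 1 in 20. Of the galectins this was Lgals9, where RS replicate 4 had a signal of 350.9 and the other RS arrays had 179 to 241.9. Without that array the log2 fold change of Lgals9 was -1.15.

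The others were single arrays of genes related to galectins or of cell type markers. B4galt3 had 949.7 on RR replicate 5, with 866.3 to 894.9 on the other RR arrays. C1galt1c1 had 667.5 on RS replicate 2, with 1008 to 1193 on the others. Neu1 had 318 and Ap1g1 212.9 on RS replicate 1, above 241.5 to 269.2 and 158.3 to 171.3 on the other RS arrays. Sufu had 48.07 on RR replicate 3, with 19.28 to 29.52 on the others. Vil1 had 32.56 on RS replicate 2, below 55.26 to 67.46. Tff3 had 4394 and Ivl 13.69 on RR replicate 4, above 3064 to 3379 and 1.785 to 5.468 on the other RR arrays.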

How the results depend on the processing

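The number of galectin probe sets past the threshold was 6 as reported and 5 or 6 under every alternative run. Where it was 5, with the deposited scaling alone, a pseudocount of 1, array weights or without any of 7 single arrays (RS replicates 1, 3 and 6, RR replicates 1, 3, 4 and 5), Lgals3bp was the member no longer past the threshold. Without RS replicate 2 Lgals3bp dropped out and the first Lgals8 probe set passed as higher (0.24). Counts of glycan genes past the threshold lay between 23 and 30 (26 as reported), of partner genes between 27 and 35 (32) and of neighbours between 45 and 56 (50), all within 1.5 times. Partner genes split into 14 higher and 18 lower as reported, 11 and 18 with median centring and 18 and 17 with the probe set of smallest p. With a pseudocount of 1 Lgals2 had a log2 fold change of -5.22 and Lgals3 of -1.85. With the probe set kept, at least 1 alternative lost the call of 3 of 26 glycan genes, 5 of 32 partner genes and 9 of 50 neighbours. Of the genes named in the text by rule these were Mgat4b, C1galt1c1, St3gal6, Ap1g1 and Slc2a2, and among the cell type markers also Ivl. The cause was not tested. Lamp2 turned from lower (-0.25) to higher (0.56) with its probe set of smallest p. No galectin past the threshold changed sign, and Lgals7, near 0, took either sign.

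The labels speak of paired passages without saying that the numbers identify the pairs. Deviations of same-numbered arrays from their line means had correlations of -0.06 to 0.08, and 1 of 6 RS arrays correlated best with its own number, so the numbers were not used to pair samples. For Lgals2, however, replicates 4 and 5 were the highest and replicate 2 the lowest in both lines. With the replicate number as a block 6 galectin probe sets, 25 glycan genes, 31 partner genes and 47 neighbours passed.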
